A study of Mus musculus with 2 samples.

Results

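The genes described here are 9 factors that silence endogenous retroviruses in mouse embryonic stem (ES) cells, *Trim28*, *Setdb1*, *Atf7ip*, *Daxx*, *Atrx*, *Morc3*, *Chaf1a*, *Chaf1b* and *Kdm1a*. They were taken by symbol from the 54146 genes listed for 2 inDrop single-cell RNA-seq libraries, and all 9 were found. One library was made from wild-type ES cells and the other from a *Lin28a* knockout ES line, in which a guide RNA and Cas9 were used against *Lin28a*, the gene of an RNA-binding protein. Both lines came from the inner cell mass and grew for 2 days on mouse embryonic fibroblast feeders in LIF/2i medium, which holds ES cells in the naive state. Per the study, the wild-type cells were also a clone that had been transfected. The libraries are called WT and AKO, as in their labels. With 1 library of 1 line per genotype there was no replicate check, so genotype, clone and culture cannot be told apart, and every interval below is a 95% interval for counting error only.

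Endogenous retroviruses are copies of ancient retroviral genomes, and ES cells keep most of them silent through histone marks, as DNA methylation is low in the naive state. KRAB zinc finger proteins bind the retroviral sequence and recruit TRIM28, a scaffold protein, which brings in the histone H3 lysine 9 methyltransferase SETDB1 and its cofactor ATF7IP. DAXX and the chromatin remodeler ATRX place the histone variant H3.3, and MORC3 is an ATPase that acts with DAXX in silencing. CHAF1A and CHAF1B are subunits of chromatin assembly factor CAF-1, which places histones on newly replicated DNA, and KDM1A (LSD1) removes methyl groups from histone H3 lysine 4. Loss of several of these factors is known to derepress retroviruses or genes of the 2-cell (2C) embryo in ES cells.

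The wild-type library held 12079546 unique molecular identifiers (UMIs, 1 per captured transcript) over 4329 barcodes and the knockout library 10027710 over 6060. Barcodes with at least 500 UMIs and at most 20% mitochondrial UMIs were kept as cells, 1856 wild-type and 1622 knockout, with medians of 6140 and 5064 UMIs per cell. *Lin28a* stood at 107 UMIs per 1000000 (CPM) in WT and 36.6 in AKO, a ratio of 0.343 (0.304 to 0.387), so the library labelled knockout was lower in the targeted gene but still held its transcripts. UMIs are made from the 3′ end and do not cover the site in the second exon against which the guide was made. Of 9 ES cell markers none was at 0 and 5 had an AKO over WT ratio below 1. *Pou5f1* stood at 838 and 1014 CPM, and *Sox2* at 159 and 92.4 CPM, a ratio of 0.581 and the only marker past 1.5-fold. Barcodes with at least 0.5% of UMIs on 3 collagen genes, called feeder-like below, numbered 41 and 21, and the 8 fibroblast markers together stood at 1156 and 638 CPM. In single-library sums, fewer cells with a transcript and fewer transcripts per cell were not told apart unless stated.

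The promoters of 4 members are shown because these genes lay at the opposite ends of the pattern described below, *Trim28* and *Chaf1a* higher and *Atrx* and *Morc3* lower in cells rich in ribosomal protein transcripts. Each is the RefSeq window of GRCm38.p6 from 250 bases before to 50 bases after an annotated start, 5′ to 3′ on the gene's strand. They lie at chr7:13023902-13024201 (plus strand), chr17:56040166-56040465 (plus), chrX:105929323-105929622 (minus) and chr16:93831871-93832170 (plus). Capitals mark CCAAT, the letters bound by NF-Y, and GCGCATGCG, a form of the NRF1 site, on either strand.
*Trim28*: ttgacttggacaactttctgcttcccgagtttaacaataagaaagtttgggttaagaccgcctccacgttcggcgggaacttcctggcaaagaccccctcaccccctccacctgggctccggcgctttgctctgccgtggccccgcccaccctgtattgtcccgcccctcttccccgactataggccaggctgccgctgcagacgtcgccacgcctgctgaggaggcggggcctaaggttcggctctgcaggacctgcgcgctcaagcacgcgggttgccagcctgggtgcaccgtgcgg
*Chaf1a*: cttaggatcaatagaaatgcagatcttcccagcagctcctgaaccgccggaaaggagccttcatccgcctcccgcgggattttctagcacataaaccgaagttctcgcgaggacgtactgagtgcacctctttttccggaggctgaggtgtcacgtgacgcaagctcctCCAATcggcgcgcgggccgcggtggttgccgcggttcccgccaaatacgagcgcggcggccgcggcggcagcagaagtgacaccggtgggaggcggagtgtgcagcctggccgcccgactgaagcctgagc
*Atrx*: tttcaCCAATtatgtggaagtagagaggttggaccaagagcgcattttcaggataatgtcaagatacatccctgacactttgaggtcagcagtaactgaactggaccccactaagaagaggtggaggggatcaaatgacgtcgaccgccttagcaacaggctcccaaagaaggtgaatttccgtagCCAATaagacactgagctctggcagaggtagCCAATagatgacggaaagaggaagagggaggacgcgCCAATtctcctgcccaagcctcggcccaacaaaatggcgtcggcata
*Morc3*: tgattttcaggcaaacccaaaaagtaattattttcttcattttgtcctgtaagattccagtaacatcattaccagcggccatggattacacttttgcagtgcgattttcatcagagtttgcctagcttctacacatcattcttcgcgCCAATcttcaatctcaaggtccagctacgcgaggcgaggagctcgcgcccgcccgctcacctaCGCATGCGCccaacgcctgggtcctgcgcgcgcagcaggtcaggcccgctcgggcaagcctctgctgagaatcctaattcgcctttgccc
The *Atrx* window held CCAAT 4 times, those of *Morc3* and *Chaf1a* held it 1 time each, and that of *Trim28* did not hold it. The *Morc3* window also held the NRF1 letters. Of the 27025 genes with a window, 37.9% held CCAAT and 1.81% held the NRF1 letters. In the windows of all 9 members, CCAAT was in those of 7, the ETS letters CCGGAAG were in those of *Setdb1*, *Daxx* and *Chaf1b* against 9.12% of all genes, and neither the YY1 letters AAGATGGCG (1.49% of all) nor the E2F letters TTTCCCGC, TTTGGCGC, TTTGCCGC or TTTCGCGC (2.32% of all) were found. The shown windows differed in base composition, with 64.0% G and C in *Trim28*, 63.0% in *Chaf1a*, 52.7% in *Morc3* and 50.3% in *Atrx*, against a median of 52.7% over all genes. The CpG dinucleotide stood in them 23, 32, 20 and 11 times. These are matches of letters and say nothing of binding.

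The first comparison asked whether transcripts of the silencing factors differed between the *Lin28a* knockout and the wild-type library. *Atrx* and *Morc3*, which belong to the H3.3 branch, were lower by more than 1.5-fold in AKO, *Setdb1* was lower by less, *Trim28* and *Chaf1a* were higher by less than 1.5-fold, and the other 4 differed by less than their counting error over all cells. Of the 9835 genes with at least 200 UMIs in both libraries together, 8.50% were lower and 6.50% higher by 1.5-fold, and 2 of 9 members were lower and 0 higher. The median ratio was 1.05 for the members and 1.01 for all genes tested.

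**Figure D1:**
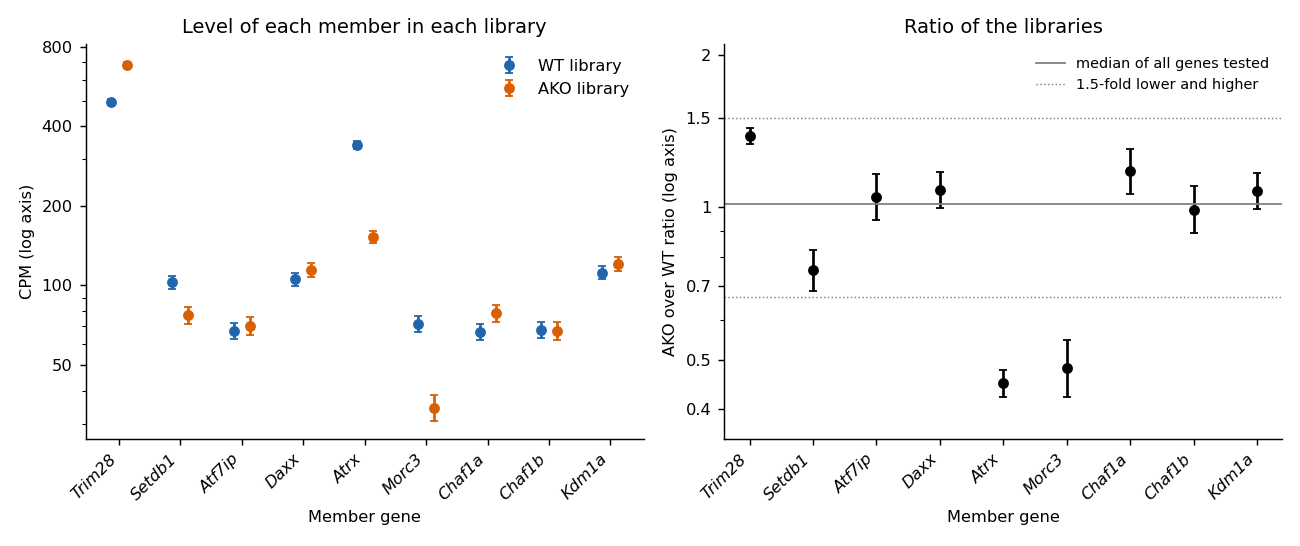
Left, CPM (log axis) of each member in WT (blue) and AKO (orange), 1 library each, with exact Poisson 95% intervals. Right, the AKO over WT ratio (log axis) with its exact 95% interval, where *Atrx* at 0.450 and *Morc3* at 0.482 lie under the 1.5-fold line and all other members lie between the lines.

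In the TRIM28 branch the scaffold and the enzyme went opposite ways. *Trim28* (chromosome 7, bases 12999114 to 13031035 of GRCm38) had 5760 UMIs or 495 CPM in WT and 6397 UMIs or 685 CPM in AKO, a ratio of 1.38 (1.34 to 1.43). *Setdb1* (chromosome 3, 95323525 to 95357202) had 1196 and 722 UMIs, which is 103 and 77.3 CPM and a ratio of 0.752 (0.685 to 0.826). The cofactor *Atf7ip* (chromosome 6, 136506167 to 136610862) stood at 67.2 and 70.4 CPM, a ratio of 1.05 (0.944 to 1.17). The *Trim28* ratio was above that of 89.0% of genes tested and the *Setdb1* ratio above that of 15.9%, so neither stood at an end of the distribution. The last exons of *Setdb1* and of the ceramide synthase gene *Cers2* overlap by 75 bases on opposite strands, and whether counting used the strand is not given in the sources used here.

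Of the H3.3 branch, the remodeler and the ATPase were lower in AKO and the chaperone was not. *Atrx* (chromosome X, 105797615 to 105929403) had 3958 UMIs or 340.1 CPM in WT and 1430 UMIs or 153 CPM in AKO, a ratio of 0.450 (0.424 to 0.478). *Morc3* (chromosome 16, 93832121 to 93876073) had 830 and 321 UMIs, which is 71.3 and 34.4 CPM and a ratio of 0.482 (0.422 to 0.549). Only 1.03% of genes tested had a ratio below that of *Atrx* and 1.55% one below that of *Morc3*. *Daxx* (chromosome 17, 33909414 to 33915590), which binds the H3.3 histone directly, stood at 106 and 114 CPM, a ratio of 1.08 (0.996 to 1.18).

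The lower level of *Atrx* and *Morc3* was not shared by their chromosomes. The 337 genes tested on chromosome X had a median ratio of 0.991, and 1.19% of them lay below *Atrx*. The 328 on chromosome 16 had a median of 0.982, and 2.44% of them lay below *Morc3*. *Chaf1b* starts 7827 bases beyond the end of *Morc3* on the same strand and had a ratio of 0.991 (0.891 to 1.10), so these neighbours differed.

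Of the CAF-1 subunits and the demethylase, only *Chaf1a* had an interval above 1. *Chaf1a* (chromosome 17, 56040439 to 56072289) stood at 66.5 and 78.4 CPM, a ratio of 1.18 (1.06 to 1.31), and *Chaf1b* (chromosome 16, 93883901 to 93906115) at 67.9 and 67.2 CPM. *Kdm1a* (chromosome 4, 136550540 to 136602723) stood at 112 and 121 CPM, a ratio of 1.08 (0.993 to 1.17). *Chaf1a* and *Kdm1a* overlap the coding genes *Ubxn6* and *Luzp1* on the opposite strand at their ends, by 5245 and 4241 bases, and these had ratios of 1.30 and 0.706, so a part of the counts could belong to them if strand was not used.

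The lower level of *Atrx* and *Morc3* in AKO was seen in the share of cells as well as in the sums. At least 1 *Atrx* UMI was found in 75.0% of WT cells (exact binomial interval 73.0 to 77.0) and 45.4% of AKO cells (43.0 to 47.9). At least 5 UMIs were found in 12.9% and 2.71%. *Morc3* was found in 30.8% and 14.7% of cells. With each cell thinned to 500 UMIs, which sets aside the difference in depth, the shares were 16.5% and 8.87% for *Atrx* and 3.31% and 1.32% for *Morc3*, so the order of the libraries was kept. *Trim28* went the other way once depth was equal, at 81.0% and 76.6% of cells as measured but 20.3% and 27.7% at 500 UMIs. The remaining members were found in 27.4% to 45.2% of cells, and most cells held only some of the set, with a median of 4 of the 9 in wild-type and 3 in AKO cells. No UMI of any member was found in 82 wild-type and 152 AKO cells. Summed over all 9, the members stood at 1428 CPM (1407 to 1450) in WT and 1401 (1377 to 1425) in AKO, so the intervals of the sums overlapped while the parts of the sum differed.

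The libraries differed in depth per cell, so the ratios were also taken among cells of like depth. *Atrx* was at 0.552, 0.423, 0.384 and 0.533 in cells of 500 to 2000, 2000 to 5000, 5000 to 10000 and at least 10000 UMIs, and *Morc3* at 0.585, 0.293, 0.406 and 0.597. *Trim28* was at 1.89, 1.70, 1.42 and 1.29 in the same cells. *Atrx* was thus lower and *Trim28* higher in AKO at every depth, and the interval of *Morc3* crossed 1 only in the shallowest cells (0.220 to 1.65), where it rested on 8 and 12 UMIs. *Setdb1* was at 0.802, 0.646, 0.694 and 0.881, and its interval crossed 1 in the shallowest cells (0.445 to 1.497) and in the deepest (0.744 to 1.05). Other members differed between depths. *Chaf1a* was at 1.56 (0.705 to 3.92), 1.02 (0.774 to 1.35), 1.48 (1.29 to 1.70) and 1.01 (0.824 to 1.24) from the shallowest to the deepest cells, with an interval above 1 only in those of 5000 to 10000 UMIs. *Atf7ip* was at 0.893 (0.762 to 1.04) in cells of 5000 to 10000 UMIs but at 1.43 (1.17 to 1.77) in the deepest, and *Daxx* was at 1.39 (1.11 to 1.74) in cells of 2000 to 5000. The intervals of *Chaf1b* and *Kdm1a* held 1 at every depth.

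The second comparison set the members against the share of ribosomal protein (RP) transcripts in a cell, since the study contrasted cells of low and high RP expression. The RP share was the part of a cell's UMIs on 91 RP genes. Cells with under 5%, 5 to 10%, 10 to 15% and at least 15% numbered 90, 880, 651 and 235 in WT and 233, 407, 595 and 387 in AKO. The members split into the same groups in both libraries. *Trim28*, *Daxx*, *Chaf1a*, *Chaf1b* and *Kdm1a* were higher in cells of at least 15% than in cells of 5 to 10%, and *Setdb1*, *Atf7ip*, *Atrx* and *Morc3* were lower. This held for CPM as measured, and relative to genes of like GC content *Atrx* lay above 1 in both libraries, while the intervals of *Atf7ip*, *Daxx* and *Kdm1a* held 1 in both and that of *Setdb1* in WT, as given below. The values of *Atf7ip*, *Kdm1a* and *Chaf1a* relative to GC content depend on where the GC groups were cut.

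**Figure D2:**
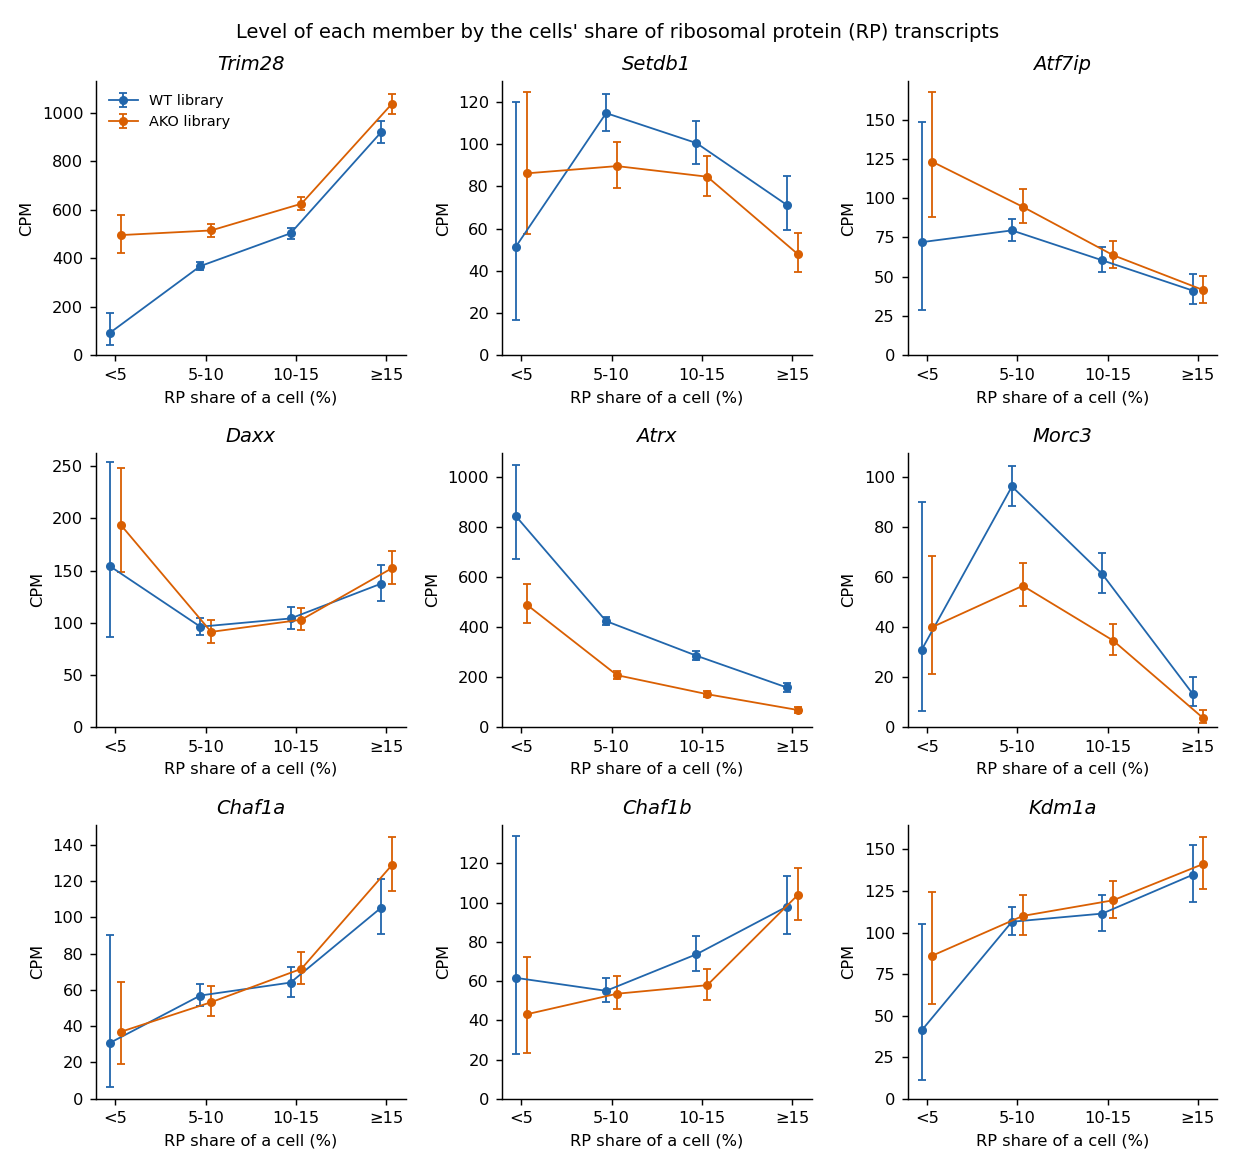
CPM of each member (linear axis from 0) in cells grouped by RP share, for WT (blue) and AKO (orange), with exact Poisson 95% intervals. From 5-10% upward *Trim28*, *Chaf1a*, *Chaf1b*, *Daxx* and *Kdm1a* slope up and *Atrx*, *Morc3*, *Atf7ip* and *Setdb1* slope down, and *Atrx* of WT lies above that of AKO in each group.

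*Trim28* climbed with each step of RP share in WT, at 92.5, 367, 503 and 919 CPM from under 5% to at least 15%. In the knockout library it stood at 495, 515, 625 and 1036 CPM. Cells of at least 15% were 2.50-fold (2.34 to 2.67) above those of 5 to 10% in WT and 2.01-fold (1.89 to 2.15) in AKO. The value under 5% in WT rested on 9 UMIs, and the intervals of the lowest groups in AKO overlapped. Its partners of the same branch went down instead. *Setdb1* stood at 115, 101 and 71.2 CPM in the 3 upper groups of WT and at 89.6, 84.6 and 48.0 in AKO. *Atf7ip* stood at 79.4, 60.4 and 41.2, and at 94.5, 63.7 and 41.4. The highest over the 5 to 10% group was 0.621 and 0.536 for *Setdb1* and 0.518 and 0.439 for *Atf7ip*, with the WT value first, and the upper bounds of the intervals were at most 0.751.

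In the H3.3 branch *Atrx* and *Morc3* were lowest in RP-rich cells and *Daxx* was not. *Atrx* stood at 843, 423, 285 and 158 CPM in WT and 489, 207, 131 and 68.1 CPM in AKO, so it was lower with each step in both and no neighbouring intervals overlapped. *Morc3* stood at 30.8, 96.2, 61.2 and 13.4 CPM in WT and 40.0, 56.5, 34.6 and 3.49 CPM in AKO. It was thus highest at 5 to 10%, and under 5% it rested on 3 and 13 UMIs. At 15% or more *Morc3* had 24 UMIs in 235 WT cells and 8 in 387 AKO cells, which is 0.139 (0.0882 to 0.209) and 0.0618 (0.0263 to 0.125) of its level at 5 to 10%. *Daxx* differed from its partners, at 154, 96.2, 104 and 137 CPM in WT and 194, 91.2, 103 and 152 CPM in AKO, high at both ends.

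*Chaf1a* and *Chaf1b* of CAF-1 both went up with RP share, and *Kdm1a* went up by less. *Chaf1a* stood at 56.9, 64.1 and 105 CPM in the 3 upper groups of WT and at 53.2, 71.7 and 129 of AKO. *Chaf1b* stood at 55.1, 73.7 and 97.9, and at 53.6, 57.9 and 104. The highest over the 5 to 10% group was 1.85 and 2.42 for *Chaf1a*, 1.78 and 1.94 for *Chaf1b*, and 1.26 and 1.28 for *Kdm1a*. *Rbbp4*, a histone chaperone gene that also belongs to CAF-1 and is not a member, went down instead, at 0.349 in WT and 0.277 in AKO.

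These gradients were common among all genes. In WT 46.1% of genes tested were lower and 22.8% higher by 1.5-fold in cells of at least 15%, against 4 and 3 of 9 members, and in AKO 46.3% and 22.5%, against 4 and 4. The median gene stood at 0.734 and 0.732, so each member's ratio would be higher relative to it, for example 3.41 and 2.75 for *Trim28*, 0.509 and 0.449 for *Atrx*, and 0.189 and 0.0844 for *Morc3*. CPM counts the RP UMIs that define the groups, which in itself lowers other genes in RP-rich cells. With RP and mitochondrial genes left out of the denominator no member changed direction. In WT *Setdb1* then moved from 0.621 to 0.678, no longer past 1.5-fold, and *Daxx* from 1.43 to 1.56, now past it. The shares of all genes were not taken with this denominator. Other measures moved with the RP share. The median mitochondrial share fell by group from 4.45% to 0.186% in WT and from 5.99% to 0.276% in AKO, and 40 S phase genes fell from 5524 and 4894 CPM at 5 to 10% to 3669 and 3186 at 15% or more. The 8 fibroblast markers stood at 1487 and 784 CPM at 5 to 10% and at 429 and 463 at 15% or more. Their part in the members' gradients was not tested, except that leaving out feeder-like barcodes turned none of the 9 directions in either library.

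The split of the members followed the GC content of their transcripts. The 4 that were lower in RP-rich cells had longest coding transcripts (GENCODE M21) of 39.5% to 49.4% GC, and the 5 that were higher had 51.7% to 59.6%. Over the 8152 genes tested with a coding transcript, the median ratio of the highest over the 5 to 10% group was 0.284 in the lowest GC quintile (a group of 1631 genes) and 1.55 in the highest quintile of WT, and 0.247 and 1.49 in AKO. Divided by the median of its own GC quintile, *Atrx* stood at 1.32 and 1.33, that is above genes of like composition. *Atf7ip* stood at 1.10 (0.851 to 1.41) and 1.03 (0.809 to 1.30), where both intervals held 1. *Morc3* stayed low at 0.489 (0.311 to 0.735) and 0.251 (0.106 to 0.505). *Setdb1* was at 0.855 (0.702 to 1.03), which held 1, and at 0.783 (0.622 to 0.980). *Trim28* at 1.62 and 1.35, *Chaf1a* at 1.53 and 2.06 and *Chaf1b* at 1.48 and 1.65 stayed high, while the intervals of *Kdm1a* at 1.05 and 1.09 and of *Daxx* at 0.924 and 1.12 held 1. *Atf7ip* (47.70% GC), *Kdm1a* (51.65%) and *Chaf1a* (55.18%) lay close to the quintile limits of 47.84%, 51.59% and 55.43%. In their own quintiles the medians were 0.470 and 0.425 for *Atf7ip* and 1.21 and 1.18 for *Kdm1a* and *Chaf1a*. In the adjoining quintile the medians were 0.727 and 0.684 for *Atf7ip* and *Kdm1a* and 1.55 and 1.49 for *Chaf1a*. Their divided values thus depend on these limits, and others were not tried. Longer transcripts also had lower ratios, from 1.42 in the shortest quintile to 0.452 in the longest in WT, and the *Atrx* transcript has 10275 bases against 4179 for *Morc3* and 3245 for *Trim28*. *Chaf1a*, which was higher in RP-rich cells, has 5535 bases and lies in the longest quintile too. Whether base composition or length plays a part in the members' ratios was not tested.

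**Figure D3:**
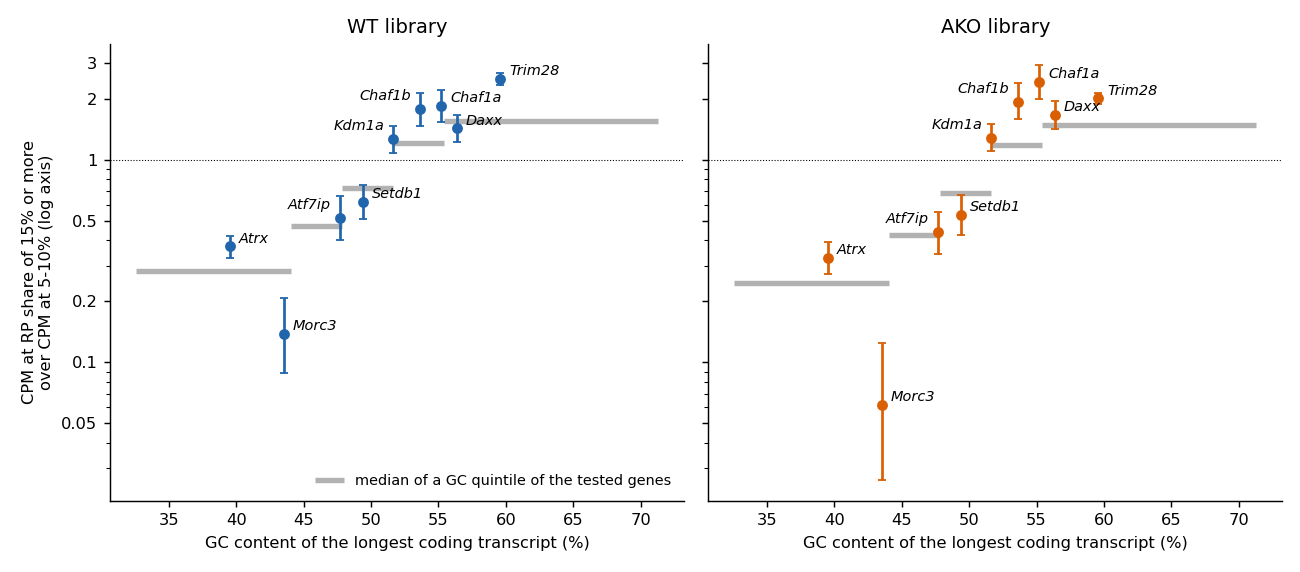
Ratio of CPM in cells of at least 15% RP share over cells of 5-10% (log axis) against the GC content of each member's longest coding transcript, with exact 95% intervals, in WT (left) and AKO (right). Grey bars are medians of all tested genes in quintiles of GC content and climb from 0.284 to 1.55 and from 0.247 to 1.49, and *Morc3* lies furthest under its bar.

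The ratio of the libraries also differed between the GC quintiles, over a smaller range. The median AKO over WT ratio was 0.791 in the lowest and 1.19 in the highest GC quintile. Divided by these, *Atrx* stood at 0.570 and *Morc3* at 0.610, still lower by more than 1.5-fold, and *Setdb1* at 0.764, *Trim28* at 1.16 and *Atf7ip* at 1.18 (1.06 to 1.31). *Daxx* stood at 0.909 (0.837 to 0.988), and the intervals of *Chaf1a* at 1.09 (0.980 to 1.20), *Chaf1b* at 0.912 (0.820 to 1.01) and *Kdm1a* at 0.992 (0.915 to 1.07) crossed 1. The values of *Atf7ip*, *Chaf1a* and *Kdm1a* depend on the quintile limits here too. The quintile above that of *Atf7ip* had a median of 0.985 in place of 0.889.

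Cells under 5% RP share were few in WT and gave small counts. There 62.4% of the 1909 genes tested were lower and 13.1% higher by 1.5-fold than at 5 to 10%, and of the 4 members with 10 UMIs expected in each group *Trim28* and *Kdm1a* were lower and *Atrx* and *Daxx* higher. *Trim28* at 0.252 (0.115 to 0.479) rested on 9 UMIs and *Kdm1a* at 0.386 (0.105 to 0.993) on 4. In the knockout library 45.5% of genes were lower and 22.5% higher, and of 9 members 0 were lower and *Atrx* and *Daxx* were higher. *Atrx* under 5% was 1.99-fold (1.58 to 2.48) its level at 5 to 10% in WT and 2.36-fold (1.97 to 2.82) in AKO, and *Daxx* was 1.60-fold (0.891 to 2.67) and 2.13-fold (1.59 to 2.80). These cells had medians of 832 and 1200 UMIs, and *Col1a1* of fibroblasts stood at 5365 CPM and *Pou5f1* at 92.5 CPM in those of WT, so the cells differed from the others in more than RP share. In the knockout library the same genes stood at 846 and 243 CPM.

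The libraries were then compared among cells of like RP share, since AKO had more cells at both ends. *Atrx* was lower in AKO in all 4 groups, at 0.580, 0.490, 0.460 and 0.431 of the WT level from under 5% to at least 15%, with no interval reaching above 0.767. *Morc3* was at 0.587, 0.565 and 0.261 in the 3 upper groups, with upper bounds of 0.697, 0.705 and 0.601, and under 5% it was at 1.30 with an interval of 0.357 to 7.10. The *Trim28* ratio shrank with RP share, at 5.36 (2.75 to 11.9), 1.40, 1.24 and 1.13, the last with an interval of 1.06 to 1.20. Its first value rested on 9 UMIs in WT, in cells that differed from those of AKO in *Col1a1* and *Pou5f1*, as given above. *Setdb1* was at 0.781, 0.841 and 0.674 in the upper groups, with each interval below 1, and under 5% at 1.68 (0.639 to 5.56). *Atf7ip* was at 1.19 (1.02 to 1.38), 1.05 and 1.01, above 1 by its interval only at 5 to 10%. *Daxx* and *Kdm1a* had intervals that crossed 1 in each of these groups. *Chaf1a* was above 1 by its interval only at 15% or more, at 1.22 (1.02 to 1.48), and *Chaf1b* below 1 only at 10 to 15%, at 0.786 (0.655 to 0.943). The medians over all genes in the 4 groups were 1.26, 1.04, 1.04 and 0.985.

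The third comparison set the members against S phase, in which CAF-1 acts and new histones are placed. Cells of at least 2000 UMIs were thinned to 2000 and split into tertiles, 3 ranked groups of unequal size because of ties, by their UMIs on 40 S phase genes, none of them a member. The lowest tertile held 579 wild-type and 373 AKO cells and the highest 466 and 295, and *Pcna*, the sliding clamp of replication, stood at 342 and 780 CPM in these tertiles of WT and at 229 and 484 of AKO. The groups are ranges of a score and not phases, with 144 and 136 cells exactly at the lower and upper limit in WT and 98 and 96 in AKO. *Pcna* is itself on the list, so it only shows that the split worked. Over all cells *Pcna* stood at 545 CPM in WT and 349 in AKO, a ratio of 0.640 (0.614 to 0.668). Whether this plays a part in the members' AKO over WT ratios was not tested.

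*Morc3* was the member with the largest difference between the tertiles. It stood at 54.5, 74.1 and 91.5 CPM from the lowest to the highest tertile in WT and at 21.5, 38.7 and 43.6 CPM in AKO, which is 1.68-fold (1.41 to 2.01) and 2.02-fold (1.46 to 2.83). *Atrx* stood at 283, 345 and 393 CPM and at 127, 147 and 157 CPM, or 1.39-fold (1.28 to 1.51) and 1.24-fold (1.07 to 1.44). *Trim28* was lower in the highest tertile, at 558, 497 and 420.1 CPM and at 734, 727 and 596 CPM, or 0.752 (0.703 to 0.805) and 0.812 (0.760 to 0.868). Of all genes tested 11.5% in WT and 18.2% in AKO were higher by 1.5-fold in the highest tertile, and of the members 1 in each, *Morc3*.

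*Chaf1a* and *Chaf1b* did not stand out in this split. *Chaf1a* was at 0.903 (0.752 to 1.08) and 0.811 (0.665 to 0.987) and *Chaf1b* at 1.11 (0.928 to 1.34) and 1.20 (0.973 to 1.48), against a median gene at 1.01 and 1.06. *Setdb1* was at 1.22 and 1.07, *Daxx* at 0.873 and 0.858, *Atf7ip* at 0.970 and 1.01, and *Kdm1a* at 1.04 and 0.962. The tertiles also differed in RP share, with medians of 11.1% in the lowest and 9.25% in the highest tertile of WT and 13.7% and 9.82% of AKO. *Morc3* and *Atrx*, highest in cells rich in S phase transcripts, were lowest in RP-rich cells. *Chaf1a*, *Chaf1b* and *Trim28* were highest in RP-rich cells. Whether RP share plays a part in the tertile ratios, those near 1 included, was not tested. Of the feeder-like barcodes 39 WT and 10 AKO lay in the lowest tertile, and with them left out *Morc3*, *Atrx* and *Trim28* kept their direction in both libraries.

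**Figure D4:**
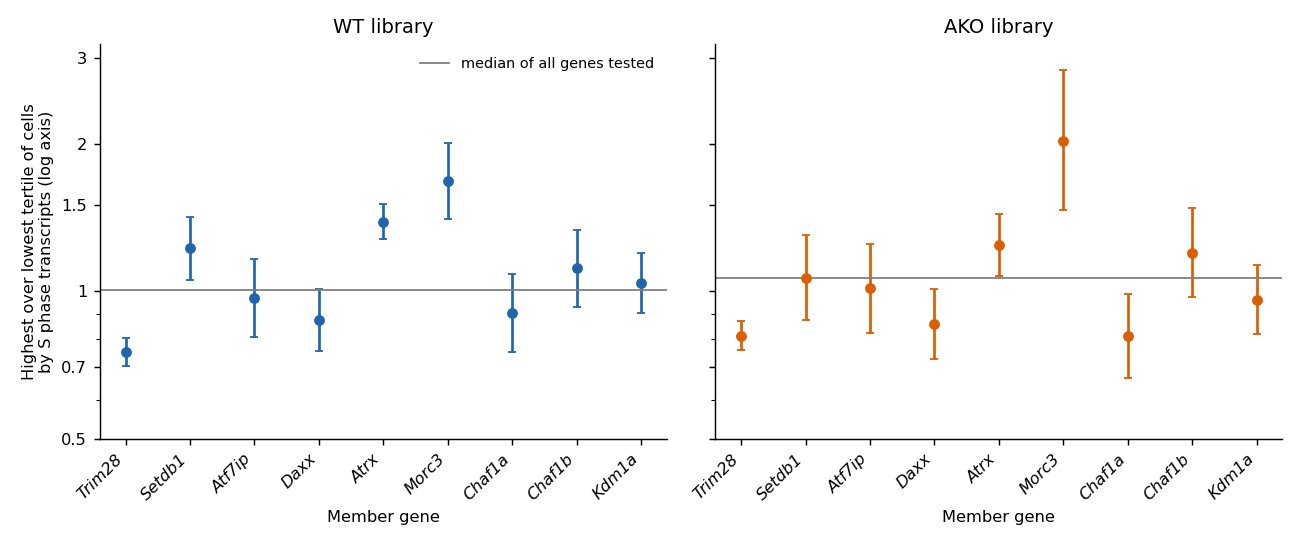
Ratio of CPM in the highest over the lowest tertile of cells by S phase transcripts (log axis) for each member, with exact 95% intervals, in WT (left) and AKO (right). *Morc3* at 1.68 and 2.02 lies highest in both, *Trim28* at 0.752 lowest in WT and *Chaf1a* at 0.811 lowest in AKO, beside *Trim28* at 0.812.

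Pooled over both libraries, feeder-like barcodes had a lower level of every member than the other cells, beyond counting error for all but *Atf7ip*. Over the 62 of them, *Chaf1a* stood at 9.70 CPM against 73.4 in the others, a ratio of 0.132 (0.0429 to 0.309), *Chaf1b* at 0.169 (0.0618 to 0.368) and *Trim28* at 0.207 (0.159 to 0.265). *Atf7ip* differed least, at 0.673 (0.430 to 1.01), and *Atrx* and *Daxx* were at 0.492 and 0.490. *Atrx* rested on 53 UMIs in WT and 13 in AKO, and *Daxx* on 18 and 10. WT gave 406949 of the 515649 UMIs in these barcodes, so the pooled values lean to WT. Ratios within each library were not taken. *Pcna* was at 0.133 in the feeder-like barcodes, close to *Chaf1a* and *Chaf1b*, and *Pou5f1* at 0.0662. These barcodes held 66 of the *Atrx* UMIs and 12 of the *Morc3* UMIs in both libraries together, and the ratio of the libraries for each was within its counting interval without them.

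Of the 65 other genes of the silencing pathway, 57 had at least 200 UMIs, and 13 of these were lower and 1 higher by 1.5-fold in AKO, with a median ratio of 0.832. Of all genes tested 8.50% were lower and 6.50% higher, with a median of 1.01, and 47.8% had a ratio below 1. Their transcripts were low in GC content, 34 of 57 lying in the lowest 2 quintiles, and divided by the medians of their GC quintiles the median was 0.907, with 4 lower and 1 higher by 1.5-fold. The 4 were *Hells* at 0.629, *Rif1* at 0.649, *Yy1* at 0.529 and *Cabin1*, a chaperone partner named for this value, at 0.658, and the 1 was *Rcor2* at 1.51. With these quintile limits the calls of the 10 other lower genes were lost relative to genes of like GC content. Of the 57 genes, 41 still lay below the median of their GC quintile. The share of all genes past 1.5-fold after this division was not taken, so the divided counts have no background.

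**Figure D5:**
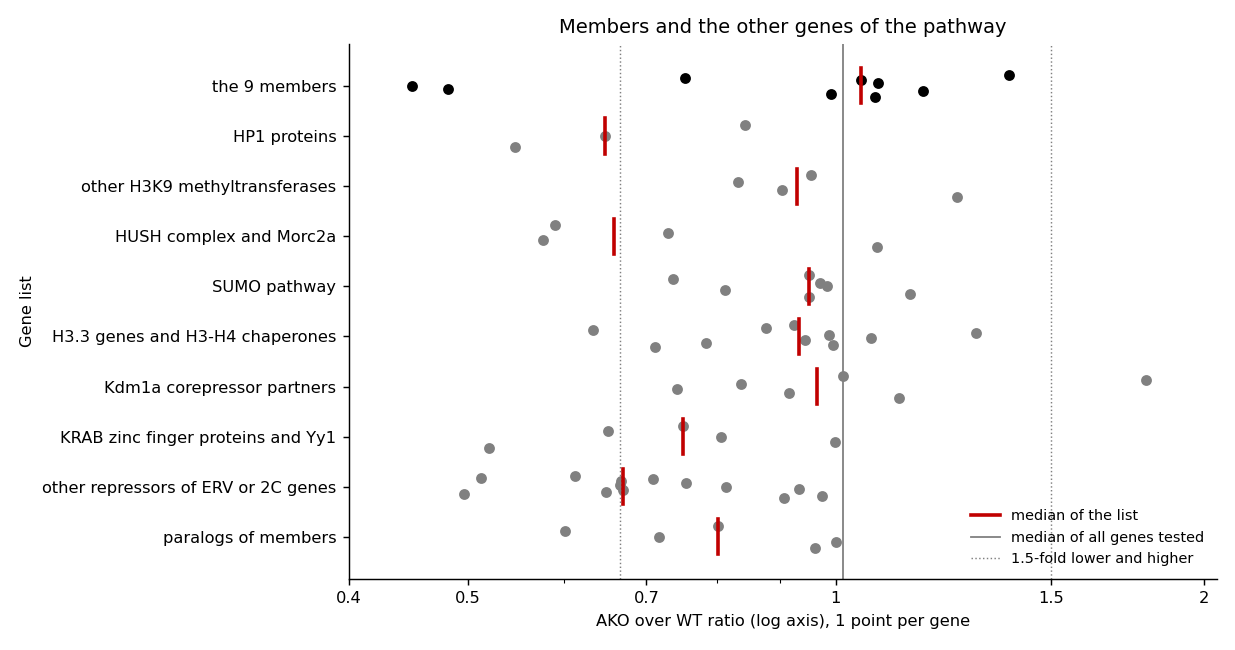
AKO over WT ratio (log axis) of the 9 members and of the tested genes of 9 lists of the same pathway, 1 point per gene, with each list's median in red and the median of all 9835 genes tested as a grey line. Most listed genes lie left of the grey line, *Hells* at 0.497 lowest, and *Rcor2* at 1.79 lies alone beyond the upper 1.5-fold line.

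Of the 3 HP1 proteins, which read the H3K9 mark, 2 were lower by 1.5-fold as measured. *Cbx5* (HP1 alpha) had a ratio of 0.547 (0.515 to 0.581), *Cbx3* (HP1 gamma) 0.647 and *Cbx1* (HP1 beta) 0.842. In the HUSH complex, which silences retroelements with SETDB1, *Pphln1* was at 0.576, *Fam208a* (TASOR) at 0.589 and *Mphosph8* at 0.729. *Morc2a*, listed with the complex but not a part of it, was at 1.08. The other H3K9 methyltransferases held 0 of 4 past 1.5-fold, from *Suv39h2* at 0.832 to *Ehmt2* (G9a) at 1.26. Divided by the medians of their GC quintiles *Cbx5* stood at 0.692, *Cbx3* at 0.819, *Cbx1* at 0.947, *Pphln1* at 0.729 and *Fam208a* at 0.745, none of them past 1.5-fold. *Pphln1* (43.94% GC) lay just under the quintile limit of 44.02%, beyond which the median was 0.889 in place of 0.791, so its value depends on this limit.

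Few genes that serve the other branches were past 1.5-fold. Of 10 genes of H3.3 and of H3-H4 chaperones only *Asf1a*, which hands H3-H4 to HIRA and CAF-1, was lower by 1.5-fold, at 0.633 (0.558 to 0.718), or 0.801 relative to its GC quintile, and its paralog *Asf1b* was the highest at 1.30. The genes of H3.3 itself, *H3f3a* and *H3f3b*, were at 0.923 and 0.876. The SUMO genes, whose product is needed for TRIM28 to recruit SETDB1, held 0 of 7 past the limit, from *Sumo2* at 0.736 to *Sae1* at 1.15. Among 6 corepressor partners of KDM1A, *Rcor2* (CoREST2) was higher at 1.79 (1.66 to 1.94), *Rcor1* was at 1.01 and *Hdac2* was lowest at 0.742.

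The DNA-binding proteins that bring in TRIM28 differed in level. Of 8 KRAB zinc finger genes 4 had at least 200 UMIs, with *Zfp961* at 67.8 and 44.1 CPM, a ratio of 0.651 or 0.823 relative to its GC quintile, and *Zfp57*, which guards imprinted genes, at a ratio of 0.998. *Zfp568*, named after its values were seen, stood at 76.6 and 61.8 CPM, a ratio of 0.806. *Zfp809* had only 9.02 and 10.1 CPM. *Yy1*, a zinc finger protein that binds retroviral promoters, was at 0.521 (0.481 to 0.562). It also had the profile over the 8 groups of library and RP share closest to that of *Atrx*, though no near match. At 15% or more RP share over 5 to 10% *Yy1* stood at 0.665 in WT and 0.443 in AKO, and *Atrx* at 0.374 and 0.329. Of the 14 other repressors 13 were tested, all below 1 against 47.8% of all genes, and *Hells* at 0.497, *Rif1* at 0.513, *Ncl* at 0.612, *Smarcad1* at 0.648 and *Mga* at 0.666 were lower by 1.5-fold, while *Uhrf1* at 0.975 was highest. Relative to their GC quintiles *Ncl* at 0.774, *Smarcad1* at 0.820 and *Mga* at 0.843 were no longer lower by 1.5-fold. All 13 stayed below 1 in this division, from *Hells* at 0.629 to *Uhrf1* at 0.897. Of the paralogs, *Trim33* was lower at 0.601, or 0.760 relative to its GC quintile, and *Morc1* was highest at 0.9998.

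Along the RP share most of the pathway genes were lower in RP-rich cells. Of 60 tested in WT 42 were lower and 2 higher by 1.5-fold at 15% or more than at 5 to 10%, with a median of 0.495, and of 59 in AKO 41 and 3, with a median of 0.412. Of all genes 46.1% were lower and 22.8% higher in WT and 46.3% and 22.5% in AKO. Divided by the medians of their GC quintiles, 14 of the pathway genes were lower and 11 higher in WT, with a median of 0.913. In AKO 19 were lower and 13 higher, with a median of 0.922. Most of the lower calls were thus not kept relative to genes of like GC content, while more genes were called higher than as measured. The share of all genes past 1.5-fold after this division was not taken. As measured, *Rif1* was at 0.163 and 0.114, and all 4 genes of the HUSH list were lower in both. *Rcor2* at 2.00 and 1.67 and *L3mbtl2* at 1.95 and 1.80 went with *Trim28* and *Chaf1a*.

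Likeness to other genes was measured as the root mean square difference of log2(CPM over its own mean) across the 8 groups, among 3658 genes with at least 1000 UMIs. *Trim28* was most like *Zfp428*, *Ranbp3* and *Ndufb2*, at 0.110 to 0.152. *Setdb1* was most like *Tpx2*, *Cdv3* and *Gm5611*, at 0.0868 to 0.128, *Atf7ip* like *Sntb2*, *Zrsr1* and *Ei24*, and *Daxx* like *Vcp*, *Smarca4* and *Fgd1*. *Chaf1a* was most like *Eif4e2*, *Gm2225* and *Eif3d*, *Chaf1b* like *Psmc3*, *Dnpep* and *Nop53*, and *Kdm1a* like *Mkrn1*, *Manf* and *Psmd2*. *Atrx* and *Morc3* had no near match. The closest to *Atrx* after *Yy1* were *Tbl1x* and *Nipbl*, at 0.268 to 0.286, and the closest to *Morc3* were *Arl6ip6*, *Trim59* and *Nipa2*, at 0.276 to 0.351. Small groups counted as much as large ones, and under 5% RP share in WT *Morc3* and *Chaf1a* rested on 3 UMIs each. Whether the likenesses or the lack of a near match go beyond counting error was not tested.

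Genes that these factors are known to hold silent gave few UMIs. The 20 listed 2C genes had 36 UMIs in WT and 31 in AKO, or 3.09 (2.17 to 4.28) and 3.32 (2.26 to 4.71) CPM, and 9 of them had none. *Usp17la*, named after its values were seen, held 26 and 21 of these UMIs. At this depth no difference between the libraries was detectable. In cells under 5% RP share the 2C genes had 0 UMIs in WT, which allows up to 30.8 CPM, and 1 in AKO. From 5 to 10% upward they stood at 4.065, 2.60 and 1.11 CPM in WT, with overlapping intervals. In AKO they stood at 4.87 (2.725 to 8.03) and 4.12 (2.305 to 6.79) CPM. At 15% or more in AKO they had 0 UMIs, which allows up to 1.31 CPM. The 9 germline genes together stood at 39.2 and 31.1 CPM, a ratio of 0.795 (0.684 to 0.923), and only *Dazl* had at least 200 UMIs. *Dazl* was at 11.9 and 16.3 CPM, a ratio of 1.36 (1.08 to 1.73), and *Sycp3* at 11.1 and 5.14 CPM, a ratio of 0.464 (0.326 to 0.651). *Ddx4* at 0.338 (0.168 to 0.633), *Stk31* at 0.386 (0.190 to 0.732) and *Slc25a31* at 0.431 (0.178 to 0.9499) were also lower, on 48, 42 and 26 UMIs in WT and 13, 13 and 9 in AKO.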

How the data were processed

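Single-cell RNA-seq was analysed from 1 wild-type and 1 *Lin28a* knockout inDrop library. Per the methods, a pipeline published for inDrop turned the reads into UMI counts for each barcode and gene, which the authors deposited with no scaling. The submitters' notes name mm10 and Seurat 2.3.4, and the aligner, the annotation and the use of strand are not given in the sources used here. Of 54146 gene identifiers 54079 matched a symbol of GENCODE M21 (GRCm38) without their version.

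The cell limits follow the study. The members and all gene lists were chosen with earlier results of these data known, and the GC quintiles were added after the ratios were seen. Sums of UMIs over cells were expressed as CPM with exact Poisson intervals, ratios with exact conditional intervals and shares of cells with exact binomial intervals, all at 95% and for counting error only. A gene was called at 1.5-fold. Genes tested had at least 200 UMIs in both libraries together, or 10 expected UMIs in the smaller cell group. Where a group had 0 UMIs, 3 UMIs served as its upper limit. Tertiles were cut after thinning with seed 1. The RP set was 91 coding genes named Rpl, Rps, Rplp or Rpsa. Named genes were the members, *Lin28a*, the listed genes with the largest and smallest ratio and those past 1.5-fold, the markers, and 3 like genes per member. The calculation was tested on simulated Poisson counts, which hold no variation between cells or libraries.

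Doublets were kept, and Scrublet marked 27 and 18 cells for the alternative without them. Barcodes carry serial names in each file, so barcodes shared by the libraries could not be counted. Other alternatives were the limits on cells, the denominator, the scaling, cells of 5000 to 10000 UMIs, the base group, other seeds, no thinning and quartiles. The tools were scanpy 1.11.5, scipy 1.17.1 and numpy 2.4.6, with matplotlib 3.10.9 for the plots, under Python 3.11.15. Repeat elements, and with them the retroviruses, were not analysed here.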

Additional observations from a re-analysis of the deposited data

Results flagged for a closer look

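The barcodes that did not pass the limits on cells also held UMIs of the members. Their summed level was 1108 CPM (1012 to 1211) over 2473 barcodes of WT and 1290 CPM (1206 to 1378) over 4438 of AKO, against 1428 and 1401 CPM in the cells. The tables also list UMIs that could not be placed on 1 gene, and of these 19 in WT and 15 in AKO belonged to members. *Setdb1* had 15 and 14 of them, beside 1224 and 767 UMIs placed on it over all barcodes.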

How the results depend on the processing

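No paired analysis was possible because each genotype had 1 library and the labels give no replicate numbers. The median AKO over WT ratio of the members, 1.05, moved to 1.30 within cells under 5% RP share, where *Morc3* stood at 1.30 on 3 and 13 UMIs in place of 0.482, *Setdb1* at 1.68 (0.639 to 5.56) in place of 0.752, and 1 member in place of 2 was lower by 1.5-fold. Divided by the medians of their GC quintiles, the median over the members was 0.912, *Atrx* turned in the RP comparison from 0.374 and 0.329 to 1.32 and 1.33, and *Atf7ip* moved from 0.518 and 0.439 to 1.10 (0.851 to 1.41) and 1.03 (0.809 to 1.30), in WT and AKO. *Daxx* in WT moved from 1.43 to 0.924 (0.793 to 1.07), which like *Atf7ip* held 1. *Atf7ip* lay close to a quintile limit, and other limits were not tried. Relative to the median of all genes tested, the median RP ratio of the members was 1.72 and 1.76 in place of 1.26 and 1.28. These divisions, the same for the pathway genes, and leaving out feeder-like barcodes, doublets and cells under 5% together, were chosen after seeing the data.

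Over the 16 settings of the library comparison *Atrx* ranged from 0.384 to 0.580. At a fold of 2 both *Atrx* and *Morc3* stayed past the limit, as 1.78% of all genes tested were, but at 0.570 and 0.610 divided by GC quintile medians neither was. Over the 14 settings of the S phase split *Morc3* ranged from 1.45 to 2.16 in WT and from 1.70 to 2.90 in AKO, and *Atrx* and *Trim28* stayed on their side of 1, while *Atf7ip*, *Chaf1a*, *Daxx* and *Kdm1a* crossed 1 in WT in at least 5 settings each. Depth limits the cells under 5% RP share most, where 7 of the 9 members had under 10 UMIs in WT.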
